A study of Mus musculus with 20 samples.

Results

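The 9 genes described here encode the NF-kappaB transcription factors and the proteins that hold back or activate them, and they were Rela, Relb, Rel, Nfkb1, Nfkb2, Nfkbia, Ikbkb, Ikbke and Tbk1. They were found by symbol among the 39056 genes of the count table, and all 9 were among the 16107 genes that passed the filter on low counts. The set was chosen by the measured level of Rela over the 4 groups, so the values of Rela are given as a description without a test, and the counts below cover the 8 other genes. RNA was taken from the left hippocampus of 20 female C57BL/6 mice aged about a year, after behavioral testing, with 5 mice in each of 4 groups. WT Non-Tg mice carried both copies of miR-34a and no transgene, KO Non-Tg mice lacked miR-34a in the whole body from conception, WT Tg-SwDI mice carried both copies of miR-34a and a human APP transgene with the Swedish, Dutch and Iowa mutations, and KO Tg-SwDI mice had both changes. The transgene is driven by the neuronal Thy1 promoter, and the KO and WT Tg-SwDI mice were bred as littermates. Each library is named by its group and by the replicate number of its label.

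NF-kappaB is a family of dimeric transcription factors that bind kappaB sites in DNA and induce genes of inflammation, immune defence and cell survival. In resting cells the dimers are held in the cytoplasm by IkappaB proteins, and the IkappaB kinase complex releases them by marking IkappaB for degradation, while a second route processes the p100 product of Nfkb2 to p52 and frees RELB. In the brain the pathway is active in microglia, astrocytes, endothelium and neurons, and the related kinases TBK1 and IKK-epsilon also activate the interferon response to nucleic acids.

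Upstream sequence is shown first, because some NF-kappaB genes are known to be induced by NF-kappaB itself. Of the genes printed, Nfkb2 and Ikbke differed between groups at an adjusted p under 0.05 in the results below. Rel and Nfkbia, printed for their matches, did so in no comparison, and Nfkb1, which did, had no promoter entry. RefSeq promoter entries were matched for 6 of the 9 genes (build GRCm38.p6), and the 250 bases before each start were searched on both strands for the kappaB consensus, counting overlapping matches. Of 32851 promoter entries, 2382 (7.25%) held at least 1 match in these 250 bases. Rel, Nfkb2 and Nfkbia held a match, and Rela, Ikbke and Tbk1 held none in this window. Nfkb2 had 3 starts, each with at least 1 match, and its first start had 4 overlapping or separate matches, on both strands. The sequences are written 5′ to 3′ on the strand of the gene, in lower case, with bases inside a kappaB match in capitals. They are the 250 bases upstream of Rela (chr19:5637291-5637540, plus strand), of the first start of Nfkb2 (chr19:46304487-46304736, plus strand), of Ikbke (chr1:131279564-131279813, minus strand) and of Rel (chr11:23770970-23771219, minus strand), with 40 bases around the match for Nfkbia (chr12:55492652-55492691, minus strand).
Rela: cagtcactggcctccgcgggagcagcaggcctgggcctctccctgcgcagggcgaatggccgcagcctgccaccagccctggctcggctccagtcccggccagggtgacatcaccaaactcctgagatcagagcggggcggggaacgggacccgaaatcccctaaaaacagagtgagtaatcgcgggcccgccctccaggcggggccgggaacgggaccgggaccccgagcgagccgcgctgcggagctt
Nfkb2: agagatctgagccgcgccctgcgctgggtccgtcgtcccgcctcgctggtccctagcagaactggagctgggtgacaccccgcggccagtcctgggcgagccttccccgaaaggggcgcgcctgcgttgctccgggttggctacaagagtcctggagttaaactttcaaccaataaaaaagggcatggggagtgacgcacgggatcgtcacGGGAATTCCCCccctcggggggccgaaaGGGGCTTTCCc
Ikbke: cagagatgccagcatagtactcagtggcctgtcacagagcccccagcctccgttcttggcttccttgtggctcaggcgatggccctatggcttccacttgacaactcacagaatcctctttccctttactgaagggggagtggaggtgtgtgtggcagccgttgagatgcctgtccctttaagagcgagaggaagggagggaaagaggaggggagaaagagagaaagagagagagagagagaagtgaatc
Rel: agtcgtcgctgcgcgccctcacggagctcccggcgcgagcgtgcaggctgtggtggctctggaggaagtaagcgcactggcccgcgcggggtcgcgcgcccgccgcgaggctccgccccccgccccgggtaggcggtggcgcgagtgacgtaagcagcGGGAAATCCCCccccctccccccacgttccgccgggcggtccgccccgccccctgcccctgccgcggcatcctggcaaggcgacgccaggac
Nfkbia: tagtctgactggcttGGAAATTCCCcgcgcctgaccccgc

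Counted from the start, the 3 overlapping Rel matches ran from position -92 to -83 on both strands and from -91 to -82 on the minus strand, the Nfkbia match ran from -29 to -20, and the matches of the first Nfkb2 start ran from -39 to -2. A match is a description of these letters, and binding was not measured. The deleted microRNA is shown because its seed, bases 2 to 8, sets which 3′ UTRs it can pair with (mature sequence from RefSeq, chr4:150068473-150068494, plus strand), with the seed in capitals.
miR-34a-5p: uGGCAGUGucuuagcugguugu

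The letters CACTGCC, which pair with this seed, and ACTGCCA, which pair with bases 2 to 7 before an A, were searched in the 3′ UTR of each gene's principal GENCODE M21 transcript. None of the 9 members held either, although 3196 of 14585 tested genes with a 3′ UTR (21.9%) did. The 3′ UTRs searched ran from 133 bases in Nfkb2 to 5418 bases in Rel, and other transcripts of these genes were not searched.

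Library totals ran from 19549622 to 21066868 counts, with a median of 20715813, and 1 library, KO Tg-SwDI replicate 8, had the lowest TMM factor at 0.901. The neuronal promoter gene Thy1 lay between 685 and 769 CPM (counts scaled to a common library size with TMM factors) in the Non-Tg mice, between 1905 and 2328 CPM in the WT Tg-SwDI mice and between 2454 and 3318 CPM in the KO Tg-SwDI mice. It therefore matched the transgene labels, and the KO and WT Tg-SwDI mice did not overlap in it. The summed level of 14 homeostatic microglia markers was 452 to 569 CPM for WT and 455 to 489 CPM for KO Non-Tg mice, and 860 to 1025 CPM for WT and 1068 to 1383 CPM for KO Tg-SwDI mice. The 8 markers of plaque-associated microglia summed to 105 to 138 CPM in Non-Tg, 457 to 558 CPM in WT Tg-SwDI and 570 to 802 CPM in KO Tg-SwDI mice. The mean of 8 summed astrocyte markers was 5025 CPM for WT and 5254 CPM for KO Non-Tg mice, and 6654 CPM for WT and 7287 CPM for KO Tg-SwDI mice. The corresponding means of 8 summed oligodendrocyte markers were 6170, 5554, 6486 and 6682 CPM. Markers of neurons (6 genes, 4856 to 6284 CPM) and of hippocampal fields (6 genes, 723 to 869 CPM) were present in every mouse. The summed level of 15 choroid plexus markers varied within groups, from 308 to 6907 CPM in WT Non-Tg, 404 to 5787 in WT Tg-SwDI and 419 to 5641 in KO Tg-SwDI mice, and lay between 272 and 729 CPM in all KO Non-Tg mice. Microglia markers thus followed the transgene, and choroid plexus markers were low in the whole of 1 group. In RNA from whole tissue, more cells of a type and more RNA per cell cannot be told apart.

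**Figure D1:**
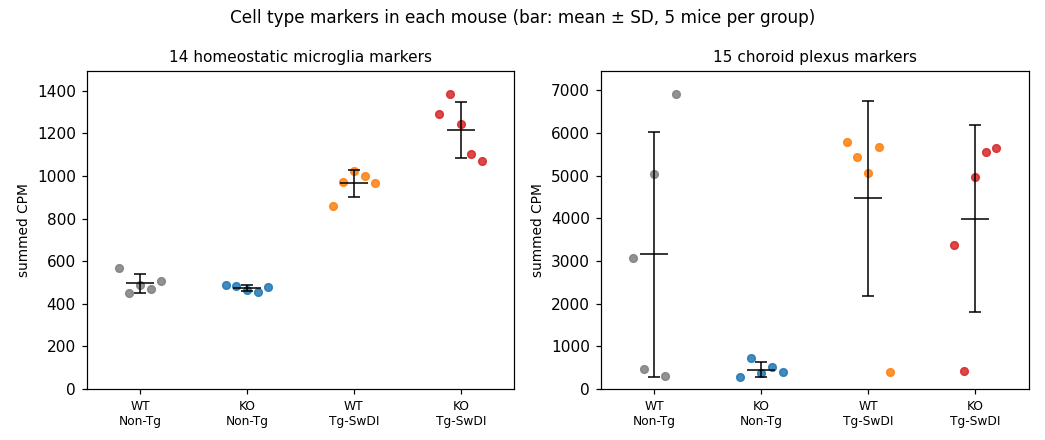
Summed CPM (vertical axes) of 14 homeostatic microglia markers (left) and 15 choroid plexus markers (right) in each of the 20 mice, by group, with bars for the mean ± SD of 5 mice. Microglia markers were 1068 to 1383 CPM in the KO Tg-SwDI mice, above all other mice, and choroid plexus markers were at most 729 CPM in any KO Non-Tg mouse.

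The 9 genes differed widely in level. Per kb of the principal transcript, Nfkbia was highest at a mean of 17.4 CPM per kb over the 20 mice, followed by Tbk1 at 13.5, Rela at 10.4 and Ikbkb at 9.75. Nfkb1 (5.39) and Relb (3.75) lay in the middle, and Nfkb2 (1.14), Rel (0.778) and Ikbke (0.526) were lowest. Rela and Ikbkb were not separated, since Rela was the higher of the pair in 11 of 20 mice. The other neighbours in this order kept their places in 17 to 20 of 20 mice. The order depended on the length used, because the merged exons of all annotated transcripts are much longer for some genes, and on that length Ikbkb was at 1.83 and Nfkb1 at 1.84 CPM per kb, below Relb at 2.13. Replicates scattered least for Ikbkb and Tbk1, with a within-group SD of 0.09 on the log2 CPM scale for both, and most for Ikbke at 0.29, whose counts were only 24 to 63 per mouse.

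**Figure D2:**
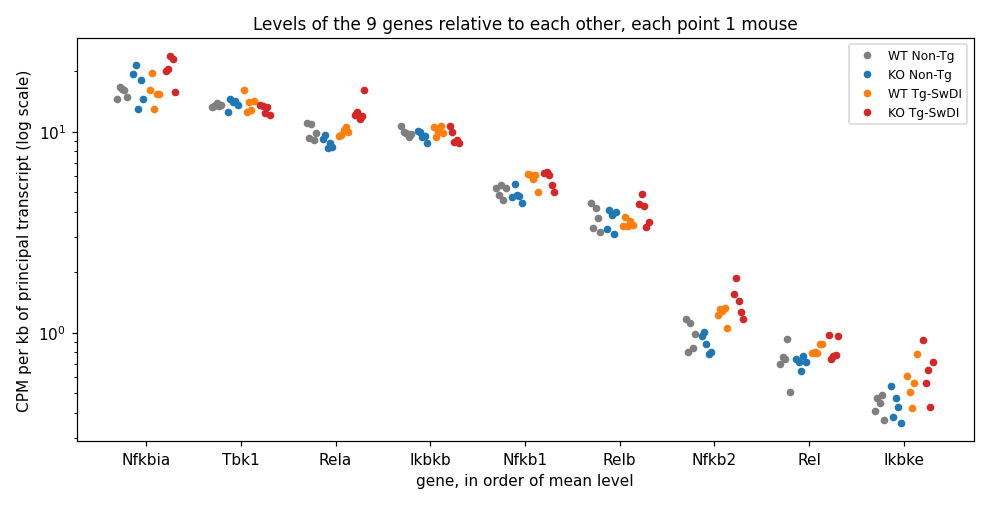
Level of each gene in CPM per kb of its principal transcript (vertical axis, log scale), 1 point per mouse, colored by group and ordered by the mean over the 20 mice. Nfkbia, Tbk1, Rela and Ikbkb formed the upper end with means of 9.75 to 17.4, and Ikbke was lowest at 0.526.

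Rela (ENSMUSG00000024927, chromosome 19, 5637483 to 5648130) encodes p65, the subunit that carries the transactivation domain of the classical NF-kappaB dimer. WT Non-Tg mice had 30.03, 25.3, 29.5, 24.7 and 26.8 CPM, and KO Non-Tg mice had 24.9, 26.0, 22.4, 23.7 and 22.8 CPM. The WT Tg-SwDI mice had 25.9, 26.2, 27.5, 28.6 and 27.0 CPM, and the KO Tg-SwDI mice had 32.9, 34.1, 31.5, 32.5 and 43.6 CPM. All 5 KO Tg-SwDI mice lay above all 15 other mice, and the other 3 groups overlapped. KO Tg-SwDI mice averaged 34.9 ± 4.93 CPM and WT Tg-SwDI mice 27.0 ± 1.06 CPM (SD, n = 5 each), which gave a log2 fold change of 0.37 with a standard error of 0.08. Against KO Non-Tg mice, which averaged 23.99 ± 1.4999 CPM (SD, n = 5), KO Tg-SwDI mice differed by 0.54 (standard error 0.08). KO and WT Non-Tg mice, the WT mice averaging 27.3 ± 2.40 CPM (SD, n = 5), differed by -0.19 (standard error 0.08), and the transgene difference among WT mice was -0.01 (standard error 0.08). The interaction, the KO difference in Tg-SwDI mice less that in Non-Tg mice, was 0.55 (95% interval 0.33 to 0.78). Because Rela chose the set, none of these values is a test. The highest value came from replicate 8, the library with the lowest TMM factor, and without it the log2 fold changes were 0.28 against WT Tg-SwDI mice, 0.45 against KO Non-Tg mice and 0.47 for the interaction. Microglia markers and Thy1 were likewise without overlap higher in the Tg-SwDI mice that lacked miR-34a, and their part in the level of Rela was not tested.

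**Figure D3:**
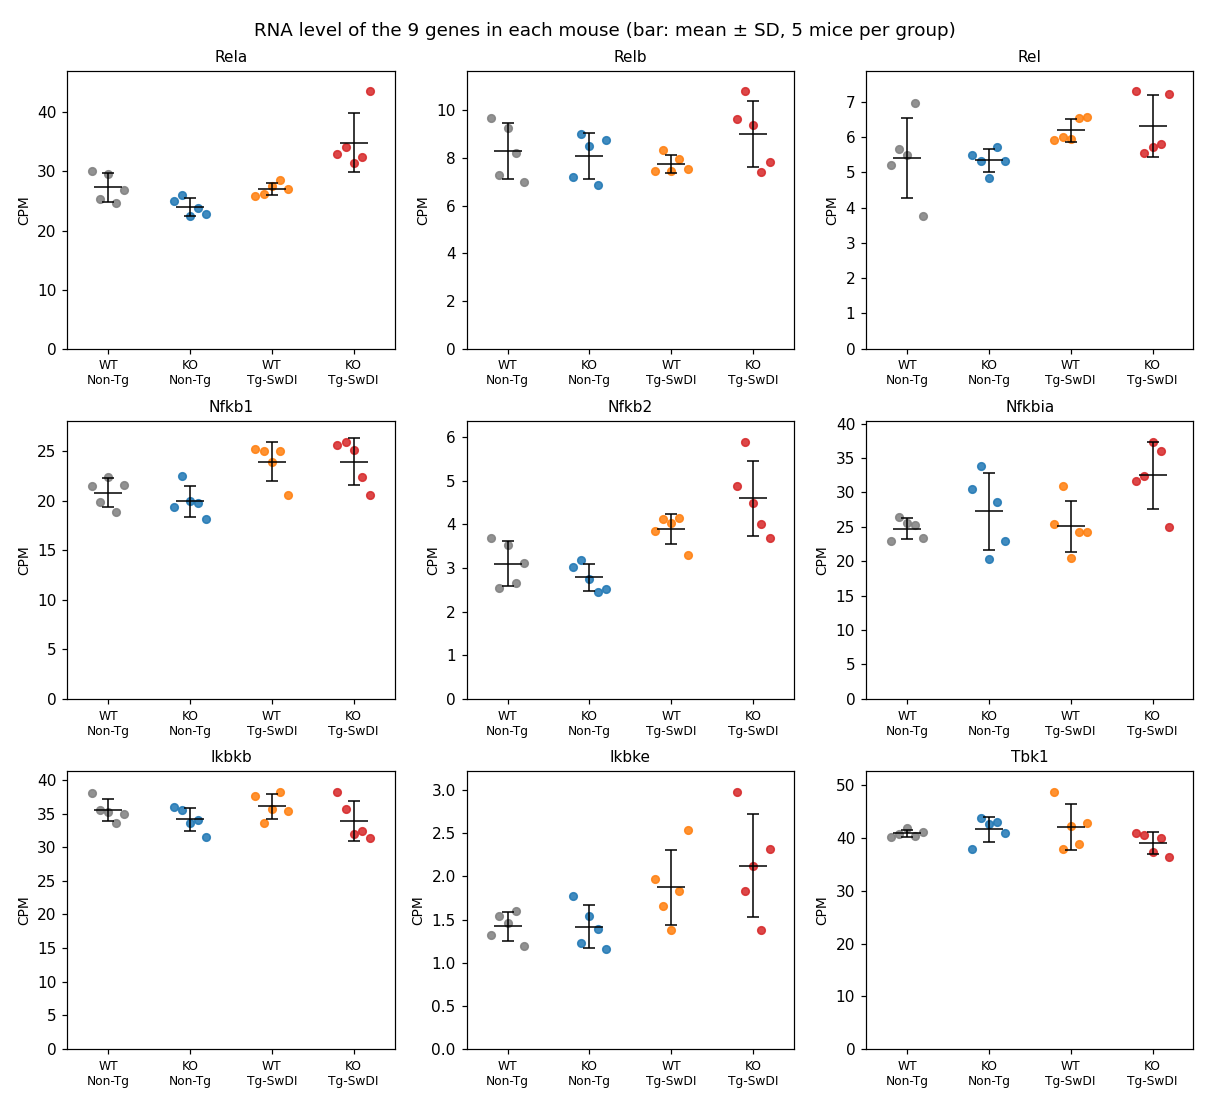
CPM (vertical axes, from 0) of each of the 9 genes in each mouse, by group, with bars for the mean ± SD of 5 mice. Rela was above all other groups in the 5 KO Tg-SwDI mice (31.5 to 43.6 CPM), Nfkb2 was higher in every KO Tg-SwDI mouse than in any KO Non-Tg mouse, and Ikbkb (31.4 to 38.3 CPM) and Tbk1 (36.5 to 48.8 CPM) overlapped in all groups.

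Nfkb2 (ENSMUSG00000025225, chromosome 19, 46304320 to 46312385) encodes p100, the precursor of p52 and the inhibitor that the alternative route processes. WT Non-Tg mice had 3.69, 2.53, 3.52, 2.65 and 3.10 CPM, and KO Non-Tg mice had 3.01, 3.18, 2.75, 2.45 and 2.52 CPM. The WT Tg-SwDI mice had 3.85, 4.12, 4.03, 4.16 and 3.30 CPM, and the KO Tg-SwDI mice had 4.88, 5.90, 4.49, 3.999 and 3.69 CPM. The KO Tg-SwDI mice lay above all KO Non-Tg mice and overlapped with the WT Tg-SwDI mice. Nfkb2 was higher in KO Tg-SwDI than in KO Non-Tg mice, at 4.59 ± 0.860 against 2.78 ± 0.314 CPM (SD, n = 5 each), a log2 fold change of 0.72 (standard error 0.14, edgeR adjusted p = 0.000393). In WT mice the transgene difference was 0.33 (standard error 0.14, edgeR adjusted p = 0.235), and between KO and WT Tg-SwDI mice it was 0.24 (95% interval -0.03 to 0.51, edgeR adjusted p = 0.335). The interaction of Nfkb2, 0.40 (edgeR adjusted p = 0.287), did not pass the threshold. Of the exonic bases of Nfkb2, 6.52% lie inside exons of Psd, a gene on the opposite strand at 433 to 549 CPM, and the strand setting of the counting is not given in the sources used here. Another 11.6% lie inside exons of a long noncoding RNA, AC114539.1, also on the opposite strand, which was not found by symbol among the genes counted. Psd differed in the opposite direction with the transgene in KO mice, by -0.15 (standard error 0.05, edgeR adjusted p = 0.0288). The part of reads from the opposite strand in the Nfkb2 difference was not tested.

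Nfkb1 (ENSMUSG00000028163, chromosome 3, 135584655 to 135691547) encodes p105, the precursor of p50, the usual partner of p65. Its CPM was 21.5, 19.8, 22.4, 18.8 and 21.6 in WT Non-Tg and 19.4, 22.5, 19.98, 19.8 and 18.1 in KO Non-Tg mice. In WT Tg-SwDI mice it was 25.3, 25.0, 23.9, 25.0 and 20.6, and in KO Tg-SwDI mice 25.7, 26.0, 25.2, 22.4 and 20.5. Of the Tg-SwDI mice, 1 WT and 2 KO mice lay within the range of the Non-Tg mice, and the others lay above it. The KO Tg-SwDI mice were higher than the KO Non-Tg mice, at 24.0 ± 2.38 against 19.96 ± 1.58 CPM (SD, n = 5 each), a log2 fold change of 0.26 (standard error 0.08, edgeR adjusted p = 0.0144). That call was lost with the choroid plexus marker score in the model (log2 fold change 0.19, edgeR adjusted p = 0.223) and when scaling by library size alone (edgeR adjusted p = 0.0623). The transgene difference in WT mice was 0.20 (standard error 0.08, edgeR adjusted p = 0.162). KO and WT Tg-SwDI mice differed in Nfkb1 by 0.00 (95% interval -0.15 to 0.15).

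Relb (ENSMUSG00000002983, chromosome 7, 19606217 to 19629438) encodes the subunit that pairs with p52, and Rel (ENSMUSG00000020275, chromosome 11, 23736847 to 23770970) encodes c-REL, best known from lymphocytes. Relb ran from 6.86 to 10.8 CPM over the 20 mice, and its mean was highest in KO Tg-SwDI mice (9.02 ± 1.38 CPM) and lowest in WT Tg-SwDI mice (7.76 ± 0.381 CPM, SD, n = 5 each). The KO difference of Relb in Tg-SwDI mice was 0.22 (95% interval -0.01 to 0.45, edgeR adjusted p = 0.284). Rel ran from 3.77 to 7.29 CPM, with means of 5.41 ± 1.14 and 5.33 ± 0.327 CPM in WT and KO Non-Tg mice and 6.19 ± 0.322 and 6.31 ± 0.869 CPM in WT and KO Tg-SwDI mice (SD, n = 5 each). The transgene difference of Rel was 0.24 in KO mice (95% interval -0.01 to 0.49, edgeR adjusted p = 0.165) and 0.19 in WT mice (95% interval -0.06 to 0.44, edgeR adjusted p = 0.491). The groups set against each other overlapped in every comparison for both genes, and neither gene passed the threshold in any. The lymphocyte markers, 8 genes in all, summed to at most 3.41 CPM in any mouse.

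Nfkbia (ENSMUSG00000021025, chromosome 12, 55489410 to 55492647) encodes IkappaB-alpha, the inhibitor that NF-kappaB itself induces in a feedback loop. Its values were 23.0, 26.4, 25.5, 25.3 and 23.3 CPM in WT Non-Tg and 30.6, 33.9, 20.3, 28.5 and 22.9 CPM in KO Non-Tg mice. WT Tg-SwDI mice had 25.4, 30.9, 20.5, 24.3 and 24.3 CPM, and KO Tg-SwDI mice had 31.7, 32.3, 37.4, 36.0 and 24.9 CPM. Of the KO Tg-SwDI mice 4 of 5 mice lay above all WT Tg-SwDI mice, and the fifth, replicate 8, lay inside their range. The means were 32.5 ± 4.86 against 25.1 ± 3.75 CPM (SD, n = 5 each), a log2 fold change of 0.37 (95% interval 0.11 to 0.64, edgeR adjusted p = 0.120). This is the nearest that any of the 8 genes came to the threshold for KO against WT in Tg-SwDI mice, and without replicate 8 the difference was 0.46 (edgeR adjusted p = 0.0683). Other alternatives weakened it. With the GC content and length trends of the libraries removed the difference was 0.30 (edgeR adjusted p = 0.2535). With the replicate number as a block in the model, the edgeR adjusted p was 0.3939. KO Non-Tg mice scattered by 20.4% of their mean in Nfkbia and WT Non-Tg mice by 6.04%.

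Ikbkb (ENSMUSG00000031537, chromosome 8, 22659212 to 22706589) encodes IKK-beta, the catalytic subunit of the classical IkappaB kinase complex. It stayed between 31.4 and 38.3 CPM in all 20 mice, with group means of 33.9 to 36.1 CPM, and its differences lay between -0.09 and 0.02 on the log2 scale in the 4 comparisons of groups. The 95% interval of the KO difference in Tg-SwDI mice was -0.21 to 0.03. Tbk1 (ENSMUSG00000020115, chromosome 10, 121546455 to 121586787) encodes the kinase that joins nucleic acid sensing to IRF3 and NF-kappaB. It ran from 36.5 to 48.8 CPM, and its mean was lowest in the KO Tg-SwDI mice at 39.1 ± 2.03 CPM (SD, n = 5) beside 40.9 to 42.1 CPM in the other groups. The KO difference of Tbk1 in Tg-SwDI mice was -0.11 (95% interval -0.23 to 0.02, edgeR adjusted p = 0.343). Neither kinase passed the threshold in any comparison, although Tbk1 did so with the GC content and length trends of the libraries removed, an alternative added once the data had been seen (-0.17 for KO Tg-SwDI against KO Non-Tg mice, edgeR adjusted p = 0.0289).

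Ikbke (ENSMUSG00000042349, chromosome 1, 131254343 to 131279606) encodes IKK-epsilon, the inducible relative of TBK1. It was at 1.32, 1.54, 1.46, 1.60 and 1.19 CPM in WT Non-Tg and at 1.77, 1.23, 1.54, 1.39 and 1.16 CPM in KO Non-Tg mice. In WT Tg-SwDI mice it was at 1.97, 1.66, 1.37, 1.84 and 2.54 CPM, and in KO Tg-SwDI mice at 2.98, 1.83, 2.13, 1.38 and 2.31 CPM. Most Tg-SwDI mice lay above the Non-Tg mice, with 2 WT Tg-SwDI mice and 1 KO Tg-SwDI mouse inside their range of 1.16 to 1.77 CPM. The KO Tg-SwDI mice were higher than the KO Non-Tg mice at 2.13 ± 0.593 against 1.42 ± 0.245 CPM (SD, n = 5 each), a log2 fold change of 0.58 (standard error 0.19, edgeR adjusted p = 0.0337). The call was lost on leaving out KO Non-Tg replicate 2, 7 or 8 or KO Tg-SwDI replicate 1, 3 or 8 (edgeR adjusted p = 0.0539 to 0.122) and in the fit of these 2 groups alone (edgeR adjusted p = 0.0718). In WT mice the transgene difference of Ikbke was 0.40 (95% interval -0.00 to 0.80, edgeR adjusted p = 0.336).

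KO against WT in Tg-SwDI mice asks what the loss of miR-34a changed in the amyloid model. Rela set aside, 0 of 8 genes passed the threshold by edgeR, beside 1.99% of the 16107 genes tested. Of these 8, 1 had an unadjusted p under 0.05 (Nfkbia), 6 had a log2 fold change above 0, and DESeq2 and edgeR's exactTest also called 0. Their median log2 fold change was 0.11, beside 0.00 over all genes. In the same comparison 5 of 14 homeostatic and 4 of 8 plaque-associated microglia markers were higher in KO mice. KO against WT in Non-Tg mice, the same question without amyloid, gave 0 of 8 genes by edgeR, with 0 at an unadjusted p under 0.05 and 0 by DESeq2 or exactTest. There the background was 0%, since edgeR called 0 of 16107 genes, with 1302 at an unadjusted p under 0.05 and 7 called by DESeq2. The 8 differences in Non-Tg mice had a median of -0.03 and adjusted p-values of 0.857 and above.

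Tg-SwDI against Non-Tg mice asks what the transgene changed. In KO mice 3 of 8 genes were higher (Nfkb2, Ikbke and Nfkb1) and 0 were lower, beside 20.8% of all genes called in either direction and 12.5% called higher. The median of the 8 log2 fold changes was 0.25, beside -0.00 over all genes. All 14 homeostatic and 8 plaque-associated microglia markers, 5 of 8 astrocyte markers, 5 of 8 oligodendrocyte markers and 13 of 15 choroid plexus markers were also higher in this comparison and 2 of 6 neuron markers were lower, and their part in the 3 calls was not tested. The choroid plexus score as a covariate left 2 of the 3 (Nfkb2 and Ikbke). With the trends of the libraries on GC content and length removed, the calls over all genes turned from 2013 higher and 1338 lower to 1487 higher and 3161 lower, and the 3 members remained higher. In WT mice 0 of 8 genes passed by edgeR, beside 4.41% of all genes in either direction and 3.94% higher, although 2 had an unadjusted p under 0.05 (Nfkb1 and Nfkb2) and 7 differences were above 0, with a median of 0.12. DESeq2 and exactTest called 0 of the 8 there as well. All 14 homeostatic and 8 plaque-associated microglia markers, 6 of 8 astrocyte markers and 1 of 8 oligodendrocyte markers were higher in WT Tg-SwDI than in WT Non-Tg mice. That the transgene difference passed in KO and not in WT mice does not show that it differed between them. The interaction tests this, and it passed for 0 of 8 genes by edgeR and by DESeq2, with 0 at an unadjusted p under 0.05, beside 0.608% of all genes. The comparisons share groups of mice, so their values are not independent of each other.

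**Figure D4:**
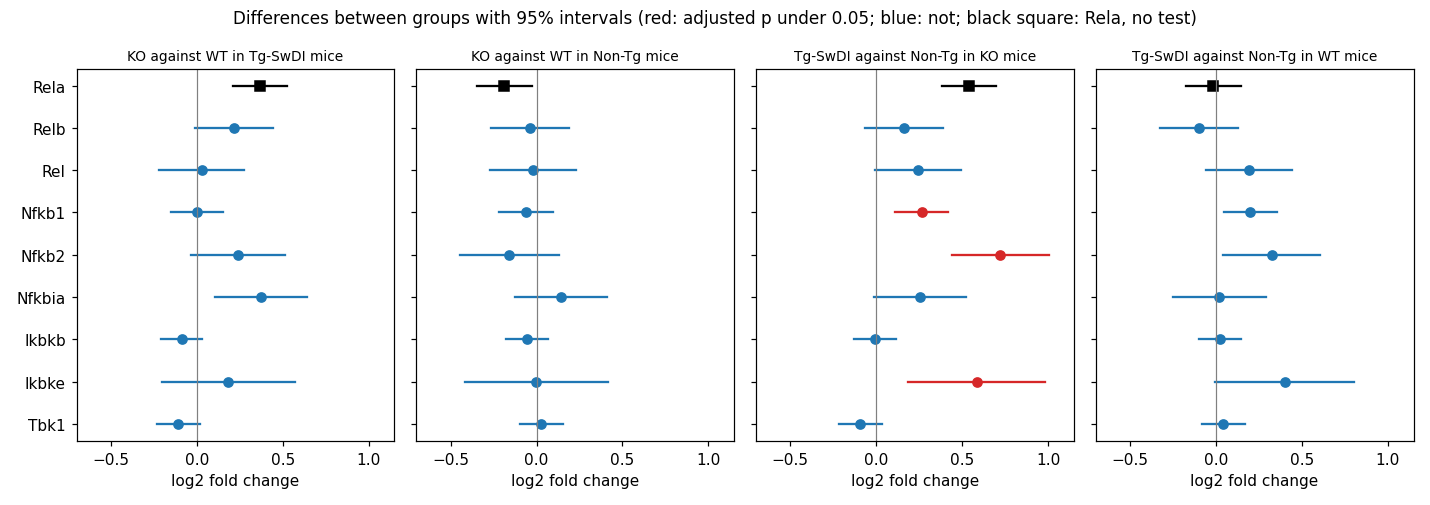
Log2 fold change (horizontal axes) of each gene in the 4 comparisons of groups, with 95% intervals from the edgeR fit, in red where the adjusted p was under 0.05, in blue where it was not, and as a black square for Rela, which was not tested. Nfkb1, Nfkb2 and Ikbke were called higher in KO Tg-SwDI than in KO Non-Tg mice, at 0.26, 0.72 and 0.58. No gene, Rela included, reached beyond 0.40 in the other 3 comparisons.

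The rest of the pathway was followed with 88 further genes in 8 lists by role, of which 78 were tested. The lists were chosen with earlier results of these data known. Their shares of called genes, set beside those of all genes in each comparison, are therefore a description and not evidence of an excess. The 10 left out for low counts included Tnf, Il1b, Il6, Ccl2 and Cxcl1, 5 well-known inflammatory genes, with at most 18 counts in any mouse. For KO against WT in Tg-SwDI mice 4 genes were higher and 2 lower (7.69% of 78), beside 1.99% of all genes and 1.48% called higher. Ltbr, the lymphotoxin beta receptor at the head of the alternative route, was at 18.1 ± 2.15 CPM in KO and 11.8 ± 1.60 CPM in WT mice (SD, n = 5 each), a log2 fold change of 0.62 (standard error 0.11, edgeR adjusted p = 0.00506). Csf1, a growth factor for microglia, was at 81.5 ± 12.1 against 61.4 ± 4.86 CPM, with a log2 fold change of 0.41 (standard error 0.09, edgeR adjusted p = 0.0166). Nfkbib, the IkappaB-beta gene, and Irak1, a kinase below the Toll-like receptors, were higher by 0.34 (edgeR adjusted p = 0.0411) and 0.21 (edgeR adjusted p = 0.0262). Birc2, the ubiquitin ligase cIAP1, was lower by a log2 fold change of -0.23 (edgeR adjusted p = 0.0325), and Tax1bp1, an adaptor that limits the pathway, by -0.20 (edgeR adjusted p = 0.0106). Groups did not overlap for Ltbr, Csf1, Nfkbib, Irak1 and Tax1bp1 and overlapped for Birc2. Some pathway genes that were not called did not overlap in this comparison either, and the share over all genes was not counted. The call of Nfkbib was lost on leaving out any of 12 single mice, including KO Tg-SwDI replicate 8 (0.22, edgeR adjusted p = 0.0669), that of Birc2 without WT Tg-SwDI replicate 3, 5, 6 or 7, that of Irak1 without WT Tg-SwDI replicate 5 or 7 and that of Csf1 without WT Tg-SwDI replicate 7. With the GC content and length trends removed, Nfkbib, Irak1, Birc2 and Tax1bp1 were no longer called (edgeR adjusted p = 0.187, 0.0743, 0.0601 and 0.1755), and Ltbr and Csf1 were. The count of 6 was 2 without WT Tg-SwDI replicate 7 and 10 on leaving out KO Tg-SwDI replicate 2. In Non-Tg mice 0 of 78 genes differed between KO and WT by edgeR, with 1 at an unadjusted p under 0.05 and 0 called by DESeq2 or exactTest.

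More of these genes differed by transgene. In KO mice 32 genes were higher with the transgene and 3 lower (44.9% of 78, beside 20.8% of all genes). Among receptors 5 of 8 were higher, led by both TNF receptors, Tnfrsf1a at 1.22 (edgeR adjusted p = 2.255e-07) and Tnfrsf1b at 1.23 (edgeR adjusted p = 6.308e-09). Among target genes 9 of 16 were higher, with the survival gene Bcl2a1b at 2.66 (edgeR adjusted p = 2.587e-06) and the chemokine Ccl5 at 1.98 (edgeR adjusted p = 0.00317), both at means of at most 1.12 CPM. Bcl2a1b has near-identical copies, so its reads are uncertain. No KO Non-Tg mouse was above 0.287 CPM of Bcl2a1b or 0.290 CPM of Ccl5. Both therefore passed the filter on low counts only through the other groups, where they were higher. Of the other IkappaB proteins 1 of 5 was higher, Bcl3, a nuclear partner of p50 and p52, at 2.39 (edgeR adjusted p = 1.281e-07). Its medians were 0.387 CPM in KO and 0.430 CPM in WT Non-Tg mice. Bcl3 therefore also passed the filter on low counts only through the Tg-SwDI mice, where it was higher. Of IKK subunits and upstream kinases 5 of 11 were higher, including Irak4 at 0.76 (edgeR adjusted p = 0.000794) and Ripk1 at 0.44 (edgeR adjusted p = 0.0329). Among TBK1 adaptors and substrates 5 of 10 were higher, including the interferon regulator Irf7 at 2.25 (edgeR adjusted p = 0.00194) and Sting1 at 0.95 (edgeR adjusted p = 2.022e-05), while Tbk1 itself was at -0.09. Negative regulators split, with 3 of 10 higher, including Usp18 at 2.10 (edgeR adjusted p = 0.00423) and Nlrc5 at 1.77 (edgeR adjusted p = 0.000489), and 2 lower. Of adaptors and ubiquitin ligases 3 of 16 were higher, including Card9 at 0.97 (edgeR adjusted p = 0.000362) and Birc3 at 0.57 (edgeR adjusted p = 0.0128), and 1 was lower. Of the 2 ligands tested 1 was higher, Tnfsf12 at 0.62 (edgeR adjusted p = 0.0293), which without KO Tg-SwDI replicate 8 was at 0.31 (edgeR adjusted p = 0.0944). The groups overlapped for Irf7, Usp18, Ccl5, Ripk1 and Birc3 and not for the other called genes named here. Here too the share of all genes without overlap was not counted. KO Tg-SwDI mice ran from 3.14 to 16.9 CPM in Irf7 and from 1.27 to 8.56 CPM in Usp18. KO Non-Tg mice reached 3.49 and 2.66 CPM in these genes. With the choroid plexus score in the model 18 of the 78 genes were called, all higher, and of the genes named here Birc3, Ripk1, Tnfsf12, Irf7, Usp18 and Ccl5 were no longer called. Their log2 fold changes in that fit were 0.46 for Birc3, 0.46 for Ripk1, 0.44 for Tnfsf12, 1.72 for Irf7, 1.59 for Usp18 and 1.61 for Ccl5, with edgeR adjusted p-values of 0.0519 (Irf7) to 0.331 (Tnfsf12). The call of Ripk1 was also lost on leaving out KO Non-Tg replicate 4, 7 or 8 or KO Tg-SwDI replicate 2 or 3, and that of Tnfsf12 on leaving out KO Non-Tg replicate 4, 7 or 8.

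In WT mice 9 of 78 genes were higher with the transgene and 1 was lower (12.8%, beside 4.41% of all genes). Bcl3 was higher by 1.95 (edgeR adjusted p = 9.688e-06), Bcl2a1b by 2.06 (edgeR adjusted p = 3e-04), Csf1 by 0.81 (edgeR adjusted p = 5.474e-07) and Tnfrsf1b by 0.77 (edgeR adjusted p = 2.834e-05). Bcl2a1b was at most 0.426 CPM in any Non-Tg mouse, so it passed the filter on low counts only through the Tg-SwDI mice. The same held for Bcl3, with a median of 0.430 CPM in WT Non-Tg mice. Zc3h12a, which degrades inflammatory mRNAs, was higher by 0.80 (edgeR adjusted p = 0.0364) and Sting1 by 0.50 (edgeR adjusted p = 0.0439). With the choroid plexus covariate both calls were lost while the log2 fold changes were 0.76 for Zc3h12a (edgeR adjusted p = 0.0663) and 0.47 for Sting1 (edgeR adjusted p = 0.0714). Leaving out any of 8 single mice ended the call of Zc3h12a, and any of 13 that of Sting1. The 1 lower gene, the receptor Cd40, was at 0.143 ± 0.119 against 0.463 ± 0.0671 CPM (SD, n = 5 each), a log2 fold change of -1.65 (edgeR adjusted p = 0.0363) at the edge of detection. No WT Tg-SwDI mouse was above 0.329 CPM of Cd40. This gene therefore passed the filter on low counts only through the other groups, where its mean was higher. The Cd40 call was lost on leaving out WT Non-Tg replicate 2, 3, 4 or 6 or WT Tg-SwDI replicate 4, 5 or 6 (edgeR adjusted p up to 0.116). The count of 10 fell to 6 on leaving out WT Non-Tg replicate 4 or 6 or WT Tg-SwDI replicate 4, 5 or 6. The interaction passed for 0 of 78 genes by edgeR, with 28 at an unadjusted p under 0.05 and a lowest adjusted p of 0.0505, and DESeq2 called 5.

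**Figure D5:**
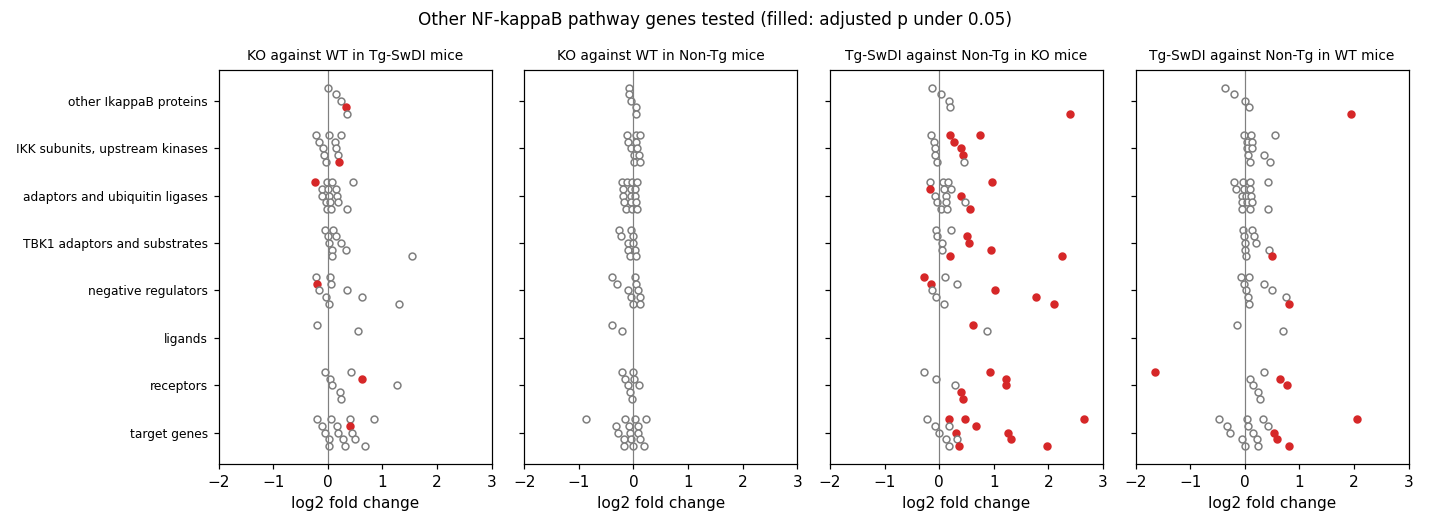
Log2 fold change (horizontal axes) of each of the 78 tested pathway genes in the 4 comparisons, 1 point per gene, in rows by role, filled where the edgeR adjusted p was under 0.05. Filled points were 6 for KO against WT in Tg-SwDI mice, 0 in Non-Tg mice, 35 for the transgene in KO mice and 10 in WT mice.

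The genes whose level followed Rela most closely over the 20 mice were not NF-kappaB genes. Ly6e, a membrane-anchored interferon-induced protein, had a Pearson correlation of 0.946 (Spearman 0.911) with Rela on the log2 CPM scale, Gltp 0.941 (Spearman 0.895), Lmf2 0.939 (Spearman 0.901), Zfp36l1 0.937 (Spearman 0.911) and Ctdsp1 0.936 (Spearman 0.931). These values rest on the same libraries and group differences, and without KO Tg-SwDI replicates 2 and 8, the pair farthest from the median of Rela, they were 0.870 to 0.936. As deviations from the group means, with all 20 mice kept, they were 0.783 to 0.860. The 5 genes were picked for their correlation with Rela, so these values are no independent check. KO Tg-SwDI mice averaged 262 ± 31.0 CPM of Ly6e and WT Tg-SwDI mice 212 ± 13.6 CPM (SD, n = 5 each). Nfkb2 was the member nearest to Rela, with a Pearson correlation of 0.685 (Spearman 0.802), rank 822 of the 16107 genes, which was 0.172 within groups. The other members ran from -0.456 for Tbk1 to 0.483 for Ikbke. The log2 fold changes of all genes followed GC content, with a Spearman correlation across genes of 0.33 for KO against WT in Tg-SwDI mice, -0.23 in Non-Tg mice, 0.21 for the transgene in KO mice and -0.24 in WT mice. Rela and Nfkb2 both had a GC content of 59.4% in their longest transcript. With the GC and length trends removed, Rela was at 0.28 for KO against WT in Tg-SwDI mice and 0.40 for the transgene in KO mice, and Nfkb2 at 0.62 for the latter (edgeR adjusted p = 0.00124).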

How the data were processed

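RNA of 20 mice was measured in 1 library each, and the authors aligned reads of stranded mRNA libraries to mm10 with STAR, used FeatureCounts to assign them to ENSEMBL genes, and deposited raw counts without normalization. Versions, strand setting and the treatment of reads matching several genes are not given in the sources used here. Symbols and positions came from GENCODE M21, which matched 38872 of 39056 identifiers (99.5%).

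Groups came from the labels. Counts were fitted with edgeR 4.0.16 in R 4.3.3 (limma 3.58.1, DESeq2 1.42.0 as an alternative), with TMM factors, filterByExpr by group (minimum count 10, minimum total 15), a robust quasi-likelihood model of 4 group means with 16 residual degrees of freedom, and Benjamini-Hochberg adjustment over 16107 genes at 0.05. CPM values use TMM-scaled library sizes. Standard errors are the log2 fold change over the square root of F. The members and lists were chosen with earlier results of these data known. Named genes were every member, up to 2 called genes with the largest change per pathway list and comparison, and the 5 genes most correlated with Rela (log2 CPM, prior count 2), with Thy1 as a check of the labels. Cell type markers were fixed lists, of which microglia, astrocyte, oligodendrocyte, choroid plexus, neuron, hippocampal and lymphocyte markers are reported. Alternatives were DESeq2, exactTest, other filters and scalings, the compared groups alone, a replicate block, the choroid plexus score as covariate and each mouse left out, with GC and length offsets added after seeing the data. The fit was tested on simulated data. The genes changed in that simulation differed by more than any member did, so it does not cover differences of the members' size. Totals of 19549622 to 21066868 counts limit precision for genes of few counts.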

Additional observations from a re-analysis of the deposited data

Results flagged for a closer look

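Within groups of 5 mice, 7 values stood apart from the other 4 mice of their group by more than 0.71 of the group's range, 2 among the 36 groups of the members and 5 among the 88 groups of the pathway genes named above. Chance alone gives about 1 in 20 groups. Rela was at 43.55 CPM in KO Tg-SwDI replicate 8, beside 34.07 CPM in the next mouse, and Nfkb1 was at 20.57 CPM in WT Tg-SwDI replicate 7, beside 23.91 CPM. KO Tg-SwDI replicate 8 was also highest in Bcl3 at 3.689 CPM (next 2.504) and in Tnfsf12 at 13.93 CPM (next 6.666). Birc2 was lowest in WT Tg-SwDI replicate 4 at 27.39 CPM (next 31.32), Card9 lowest in WT Non-Tg replicate 4 at 1.221 CPM (next 2.149) and Birc3 highest in WT Tg-SwDI replicate 6 at 3.14 CPM (next 2.679).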

How the results depend on the processing

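Of the 40 member results with a test, 26 kept their direction and call under every alternative, none of the called ones turned direction, and 11 that were not called changed sign somewhere. The counts of members called stayed at 0 in 4 comparisons under every alternative and ran from 2 to 4 for the transgene in KO mice (2 to 3 with 1 mouse left out). Pathway genes called for KO against WT in Tg-SwDI mice, 6 by edgeR, were 10 with DESeq2, 1 with the compared groups alone, 2 with GC and length trends removed, and 2 to 10 with 1 mouse left out. For the transgene in KO mice 35 became 18 with the choroid plexus covariate (27 to 36 with 1 mouse left out). For the transgene in WT mice 10 became 6 to 11 with 1 mouse left out. For the interaction 0 became 5 with DESeq2, 1 without a filter, 1 with the stricter filter and 0 to 3 with 1 mouse left out (3 without KO Tg-SwDI replicate 2). With the replicate block the pathway count for KO against WT in Tg-SwDI mice was 0, also with the GC and length trends removed, and the calls over all genes were 8 in place of 320. The replicate block left the members' counts at 3 for the transgene in KO mice and 0 elsewhere. The labels do not say what the replicate number stands for. The deviations of 16 same-numbered pairs correlated at a median of -0.04 (-0.40 to 0.15), and 2 pairs were over 0.1. These correlations cannot show whether same-numbered mice shared a litter or a batch, which was not tested. Over all genes, calls for KO against WT in Tg-SwDI mice reached 733 with DESeq2 and were 78 to 701 with 1 mouse left out, those of the interaction (98) ran from 10 to 500, and those of the transgene in KO mice (3351) fell to 1222 with the choroid plexus covariate. The split for KO against WT in Tg-SwDI mice, 239 higher and 81 lower, was 102 and 115 with library size alone, and that of the transgene in WT mice, 635 and 75, was 558 and 178 with GC and length trends removed. That of the interaction, 69 and 29, was 20 and 1 with those trends removed. The log2 fold change of Rela between KO and WT Tg-SwDI mice ran from 0.22 to 0.40 over the alternatives. The cause of these changes was not tested. Members with few counts, such as Ikbke at 24 to 63 per mouse, are limited by depth.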
